A study of Mus musculus with 22 samples.

Results

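The 9 genes described here differed many-fold between livers with and without Flcn on at least 1 diet. They are Il12rb2, Prkg2, Cyp46a1, Mmp27, Adra2a, D7Ertd443e, Cfap44 and Gm18860, which were higher in livers without Flcn, and Gm45910, which was lower. These 9 of the 55573 genes in the count table were picked by symbol because liver-Flcn-/- and Cre livers did not overlap and differed many-fold on a diet. All 9 passed the filter on low counts that left 14062 genes for testing. Because the genotype contrast chose them, their genotype differences are described here without a test. The effect of sex was not part of the choice and is tested, although the same livers enter both. A choice on at least 1 diet can favour genes that differ between diets. Without overlap and at least 8-fold, Prkg2, Cfap44 and Gm45910 separated the genotypes on chow alone. Diet effects are tested, but those of these genes are no independent support.

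Folliculin, the product of Flcn, acts with FNIP1 and FNIP2 on the Rag GTPases at the lysosome. Through RagC and RagD it controls whether the transcription factors TFEB and TFE3 stay in the cytoplasm, and cells that lose it send these factors to the nucleus.

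The data are mRNA-seq counts of 22 livers from C57BL/6 mice, 1 library per mouse, in 4 groups. Cre mice were Flcn WT/WT; Albumin-Cre+/- and served as controls, with 6 livers on chow and 5 on a methionine/choline deficient (MCD) diet. Liver-Flcn-/- mice were Flcn f/f; Albumin-Cre, with 5 livers on chow and 6 on MCD. Chow held 10 kcal percent fat, and the MCD diet began at 6 weeks of age and lasted 6 weeks. The labels give all mice an age of 3 months. The Albumin promoter drives Cre in hepatocytes, so the recombinase is present in both genotypes and other liver cells keep Flcn. The floxed allele was present in the liver-Flcn-/- mice alone, so an effect of losing Flcn and an effect of sequence inherited with that allele cannot be told apart. Library depth, as the sum of gene counts, lay between 13751347 and 21144388. All 9 hepatocyte markers were measured, with a summed level of 67900 to 169000 CPM (TMM-scaled CPM). In these bulk samples fewer cells of a type and less RNA per cell cannot be told apart.

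Several livers need to be known before the values. The labels give no sex, but Xist, the RNA of the inactive X chromosome, split the livers into 12 with 5411 to 7573 counts, called female here, and 10 with 0 to 19 counts, called male. Ddx3y, a Y-linked gene, had 703 to 2172 counts in the males and 0 to 378 in the females. Each group held both sexes, with 3 males of 6 Cre livers on chow, 2 of 5 on MCD, 2 of 5 liver-Flcn-/- livers on chow and 3 of 6 on MCD. Among the females, Cre MCD 1 and FLCN KO Chow 2 held Y-linked reads at 15.6% and 15.1% of the male median over 4 Y-linked genes, and results were repeated without these 2 libraries. Whether reads were carried over between libraries was not tested, and this bears on Cre counts near 0. Cre MCD 1 held 6 counts of Prkg2 and 4 of D7Ertd443e. The 5 chow libraries with the lowest share of uniquely mapped reads were all male (Cre Chow 1, 5 and 6, FLCN KO Chow 1 and 3), so on chow sex and mapping quality cannot be told apart. Cre MCD 3 carried skeletal muscle markers at a summed 2340 CPM, against 0.769 to 115 CPM in the other MCD livers.

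Flcn itself, reported first as a check of the labels, was lower in liver-Flcn-/- livers on chow without overlap, at 16.7 to 24.2 CPM against 26.1 to 40.2 CPM. On MCD the genotypes overlapped, at 17.6 to 32.6 CPM against 18.2 to 39.9 CPM. The edgeR log2 fold changes were -0.63 (SE 0.173, adjusted p = 0.025) on chow and -0.16 (SE 0.17, adjusted p = 0.57) on MCD. Counts cover the whole gene, of which the deletion removes a single exon in hepatocytes, so they check the labels only in part.

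**Figure D1:**
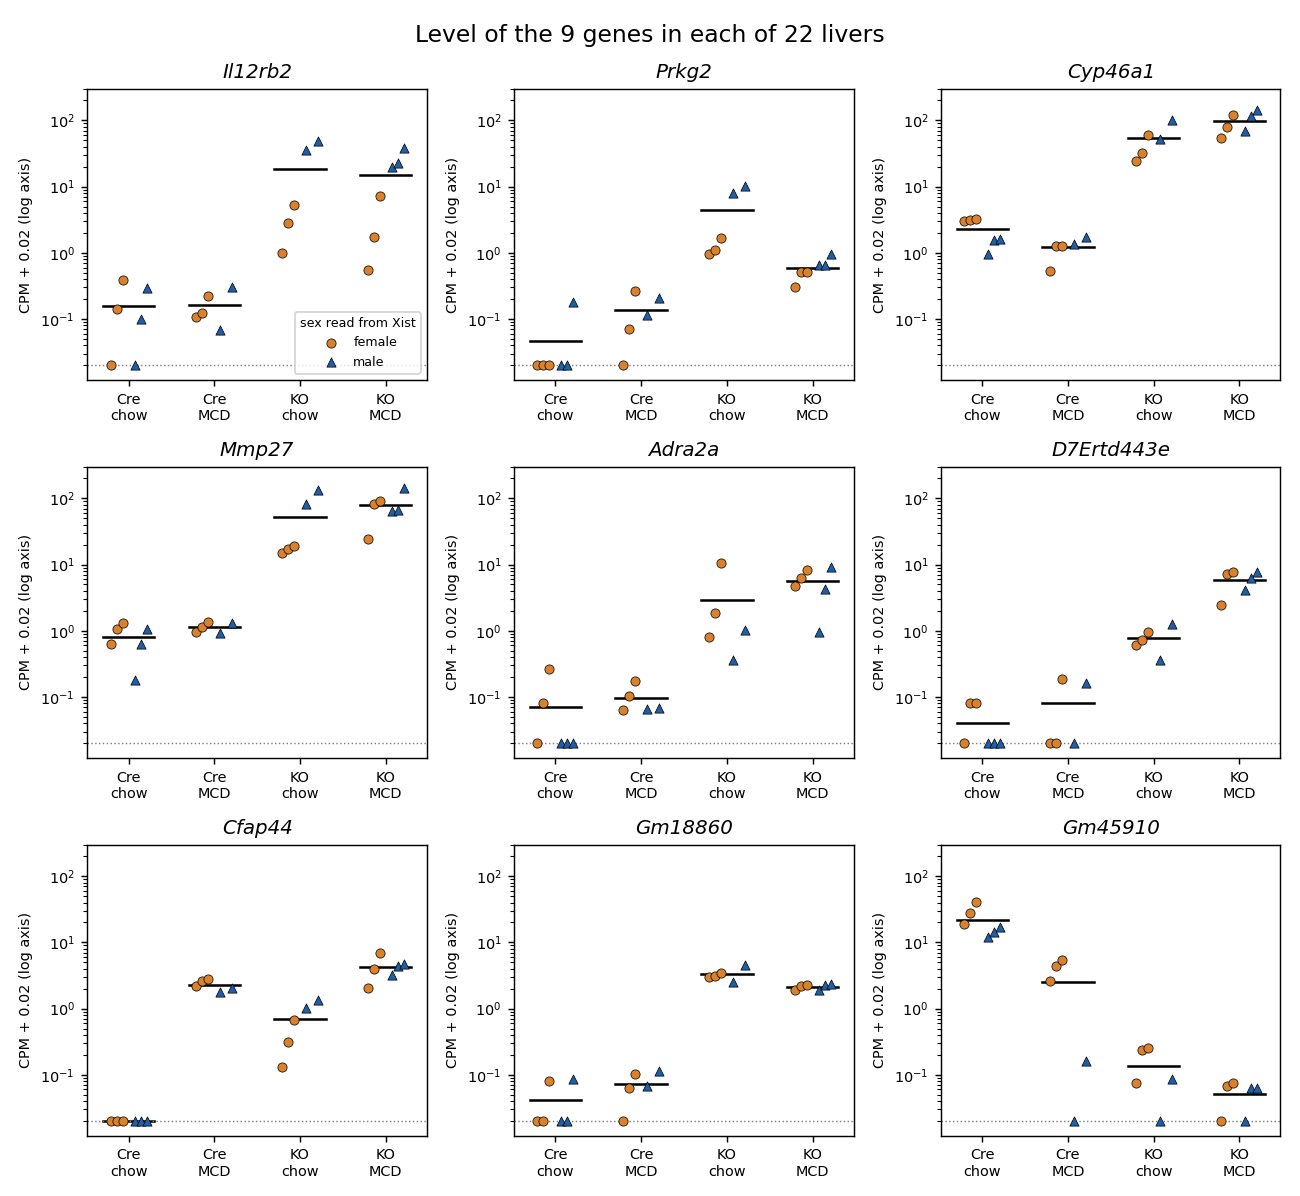
Level of each of the 9 genes in every liver, as CPM with 0.02 added on a log axis, by genotype and diet. Points are single livers, with triangles for males and circles for females, bars are group means and the dotted line marks a count of 0. On chow all 9 genes separate the genotypes, while on MCD Cfap44 and Gm45910 overlap. The nearest livers for Prkg2 on MCD hold the same 6 counts and differ only after scaling to library size.

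On chow the genotypes did not overlap for any of the 9 genes. For comparison, 4.01% of all tested genes were higher without overlap in liver-Flcn-/- livers on chow and 2.93% were lower, and with a difference of at least 8-fold as well these shares were 0.455% and 0.0356%. On MCD 7 of the 9 stayed apart. There the shares were 5.08% and 3.53% without overlap, and 0.228% and 0.064% with at least 8-fold as well. Since the genotype contrast chose the genes, nothing is read from these counts. The narrowest separation was that of Prkg2 on MCD, with 0.286 CPM in the lowest liver-Flcn-/- liver against 0.247 CPM in the highest Cre liver. Both livers, FLCN KO MCD 6 and Cre MCD 1, held 6 counts, so this separation rests on the scaling to library size. Just outside lay Cfap44 on MCD, with 2.05 CPM against 2.80 CPM.

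Il12rb2 (ENSMUSG00000018341) encodes the beta 2 chain of the interleukin-12 receptor, which T and NK cells use to respond to IL-12. Its gene spans 67291318 to 67376188 of chromosome 6, minus strand (GRCm38, as all positions here). Liver-Flcn-/- livers on chow held 35.8, 5.35, 48.8, 2.81 and 0.97 CPM. On MCD they held 37.8, 19.9, 7.24, 22.5, 0.537 and 1.72 CPM. The spread within the genotype was thus as wide as 50.3-fold on chow and 70.4-fold on MCD, wider than for any other of the 8 higher genes. The means were 18.8 ± 22.1 CPM (SD, n = 5) and 15.0 ± 14.5 CPM (SD, n = 6). All 11 Cre livers stayed between 0 and 6 counts, at most 0.364 CPM. The ratio of pooled counts was 113 on chow (exact 95% interval 66.1 to 213) and 104 on MCD (64.0 to 183). Without the 5 chow libraries of low unique mapping, which are the chow males, the fitted log2 difference on chow was 4.16 in place of 6.94. Such intervals cover counting error only. The 3' end of Il12rb2 overlaps Serbp1 on the opposite strand, and whether counting used strand is not given in the sources used here. Serbp1 had a mean of 306 CPM and log2 fold changes of -0.17 (adjusted p = 0.23) on chow and 0.03 (adjusted p = 0.84) on MCD by edgeR.

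Diet did not separate the liver-Flcn-/- livers (-0.31, SE 0.792, adjusted p = 0.77, edgeR). Without the 5 chow libraries of low unique mapping the diet effect was 2.30 (adjusted p = 0.051). These are the chow males, so that fit set chow females alone against MCD livers of both sexes. Within each sex the means on chow and MCD were 3.04 and 3.17 CPM in females and 42.3 and 26.7 CPM in males. The livers with high Il12rb2 were the males. On chow the 2 male liver-Flcn-/- livers held 35.8 and 48.8 CPM, and the 3 females 0.97 to 5.35 CPM. On MCD the 3 males held 19.9 to 37.8 CPM and the 3 females 0.537 to 7.24 CPM. The sexes did not overlap on either diet, although no female fell into the range of the Cre livers. With sex as a term within each genotype, a fit added after the values had been seen, males exceeded females by a log2 fold change of 3.42 (SE 0.45, adjusted p = 0.00067, edgeR). This difference was called for 0.327% of tested genes in liver-Flcn-/- livers (0.228% higher and 0.0996% lower in males) and for 2.77% in Cre livers (1.9% and 0.875%). In Cre livers Il12rb2 lay at 0 to 6 counts, too few for a sex difference to be read (-0.01, SE 1.27, edgeR). The difference between the genotypes' sex effects did not pass for it (3.42, SE 1.35, adjusted p = 0.61, edgeR). No tested gene passed for that difference by edgeR, while 1031 had an unadjusted p under 0.05 and DESeq2 called 10. Without Cre MCD 1 and FLCN KO Chow 2 the sex difference of Il12rb2 in liver-Flcn-/- livers was 3.62, and 3.19 to 4.13 when single livers were left out.

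**Figure D2:**
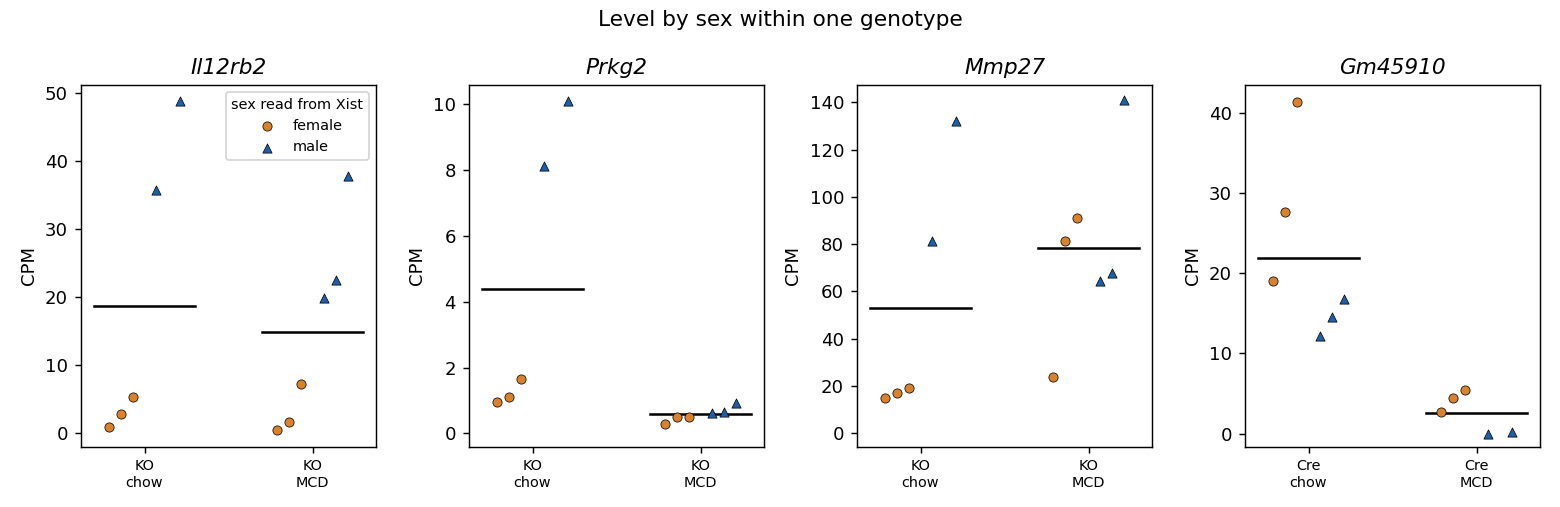
CPM on linear axes for Il12rb2, Prkg2 and Mmp27 in liver-Flcn-/- livers and for Gm45910 in Cre livers, by diet. Triangles are males, circles are females and bars are group means. Il12rb2 and Prkg2 separate the sexes on both diets, Mmp27 on chow (81.4 and 132 CPM against 14.9 to 19.0 CPM), and Gm45910 is lower in males.

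T and NK cells are the usual source of Il12rb2 in a liver. Summed over 15 markers, their level was 12.9 to 13.9 CPM in liver-Flcn-/- livers and 5.85 to 11.2 CPM in Cre livers on chow. On MCD it was 5.58 to 9.77 CPM and 5.26 to 11.6 CPM. On chow the marker sum was thus higher in every liver-Flcn-/- liver than in any Cre liver, and its part in the level of Il12rb2 was not tested. None of the 9 tested markers passed between genotypes on either diet. Of the IL-12 family signalling list, 12 of 20 genes were tested and none passed on chow, where 8.62% of all tested genes did. On MCD 2 passed, both lower in liver-Flcn-/- livers, where 8.53% of all tested genes were lower and 16.6% passed in either direction. The list median on MCD was -0.35 against -0.01 over all tested genes. The 2 genes were Ifngr1, a chain of the interferon gamma receptor (-0.39, SE 0.106, adjusted p = 0.014), and Il18rap, a chain of the IL-18 receptor (-1.12, SE 0.34, adjusted p = 0.027). Il12rb1, the partner chain of Il12rb2, had 1.02 and 0.429 CPM in Cre and liver-Flcn-/- livers on chow and 0.693 and 0.311 CPM on MCD (adjusted p = 0.24 and 0.2, edgeR).

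Prkg2 (ENSMUSG00000029334, chromosome 5, 98929773 to 99037351, minus strand) encodes cGMP-dependent protein kinase II, a membrane-bound kinase known from intestine, bone and kidney. Its levels in liver-Flcn-/- livers on chow were 10.1, 0.951, 8.13, 1.1 and 1.67 CPM. On MCD they held 0.936, 0.646, 0.487, 0.634, 0.488 and 0.286 CPM. Every liver on chow thus lay above every liver on MCD, but by a margin as thin as 0.951 against 0.936 CPM. The fall with the MCD diet was -2.89 on the log2 scale (SE 0.58, adjusted p = 0.00036, edgeR). Since the chow levels entered the choice of Prkg2, the fall is a description. Without the 5 chow libraries of low unique mapping, which include the 2 chow males, Prkg2 did not pass the count filter and this was not tested. In Cre livers Prkg2 totalled 2 counts over 6 livers on chow and 13 counts over 5 livers on MCD. The ratio of genotypes was 174 on chow (exact 95% interval 47.8 to 1440) and 4.88 on MCD (2.69 to 9.59). Both Cre counts on chow lay in Cre Chow 6, and without it the fitted log2 difference on chow was 9.35 in place of 7.21, a value that depends on the prior count. The interaction of genotype and diet is the difference of the genotype contrasts that chose the genes, so here and for the other genes it is given as a description only, at -4.98 (SE 1.43) for Prkg2 and -7.12 without Cre Chow 6.

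Prkg2 also followed sex. On chow the 2 males, both of low unique mapping, held 8.13 and 10.1 CPM and the 3 females 0.951 to 1.67 CPM. On MCD the 3 males held 0.634 to 0.936 CPM and the 3 females 0.286 to 0.488 CPM. The MCD values rest on few counts, 15 to 19 in the males and 6 to 10 in the females. The sexes did not overlap within either diet, with a male to female log2 fold change of 1.97 (SE 0.421, adjusted p = 0.045, edgeR), which was lost without Cre MCD 1 and FLCN KO Chow 2 (1.76, adjusted p = 0.068) and without any of 14 single livers (adjusted p up to 0.25). Of the cGMP signalling list 15 of 25 genes were tested. None passed between genotypes on chow and 2 did on MCD, where 8.62% and 16.6% of all tested genes passed. On MCD Pde9a, a phosphodiesterase that breaks down cGMP, rose (0.63, SE 0.15, adjusted p = 0.0059) and Pde1b fell (-0.79, SE 0.222, adjusted p = 0.017). The other cGMP kinase, Prkg1, had 1.48 and 1.51 CPM in Cre and liver-Flcn-/- livers on chow and 2.30 and 2.38 CPM on MCD (adjusted p = 0.98 and 0.92, edgeR).

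Cyp46a1 (ENSMUSG00000021259, chromosome 12, 108334381 to 108362234, plus strand) encodes cholesterol 24-hydroxylase, the enzyme by which neurons turn over cholesterol. In liver-Flcn-/- livers on chow the levels were 100, 24.5, 53.1, 59.3 and 31.8 CPM. The mean was 53.7 ± 29.6 CPM (SD, n = 5). On MCD they held 115, 146, 121, 70.2, 54.7 and 79.3 CPM, a mean of 97.8 ± 35.0 CPM (SD, n = 6). In Cre livers it was not silent, at 0.949 to 3.22 CPM on chow and 0.517 to 1.69 CPM on MCD. The ratio of genotypes was 21.8 on chow (exact 95% interval 18.9 to 25.1) and 81.9 on MCD (68.9 to 98.1), and the fitted log2 difference on chow was 3.62 without the 5 libraries of low unique mapping in place of 4.54. Cyp46a1 rose with the MCD diet in liver-Flcn-/- livers (0.87, SE 0.323, adjusted p = 0.034, edgeR), a call lost without any of 6 single livers and without the 2 livers of mixed reads (0.68, adjusted p = 0.11). In Cre livers the change was -0.93 (SE 0.429, adjusted p = 0.068, edgeR), without a call in 27 of 32 alternatives. Among those that called it were DESeq2 (-0.90, adjusted p = 0.049) and edgeR without the 5 libraries of low unique mapping (-1.39, adjusted p = 0.01). The interaction was 1.80 (SE 0.536). Within Cre livers the sex difference did not pass (-0.40, SE 0.413, adjusted p = 0.71, edgeR), with 3.03 to 3.22 CPM in females and 0.949 to 1.61 CPM in males on chow, and 0.517 to 1.24 CPM and 1.36 to 1.69 CPM on MCD.

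Neuron markers were not higher where Cyp46a1 was. Their summed level over 6 genes had a median of 9.27 CPM in liver-Flcn-/- livers and 15.2 CPM in Cre livers on chow, and 6.90 and 9.56 CPM on MCD. Of the sterol hydroxylases and oxysterol signalling list 16 of 18 genes were tested. On chow 1 passed and on MCD 2 did, shares near the 8.62% and 16.6% of all tested genes. Abcg1, a sterol exporter, rose on chow (0.56, SE 0.155, adjusted p = 0.028). On MCD Lpcat3, a phospholipid acyltransferase, rose (0.53, SE 0.0873, adjusted p = 0.00028) and Cyp51, a cholesterol synthesis enzyme, fell (-0.71, SE 0.218, adjusted p = 0.029). The list medians were -0.14 on chow and -0.17 on MCD, against -0.03 and -0.01 over all tested genes. The hepatic sterol hydroxylases did not pass on either diet: Cyp7a1, the rate-limiting enzyme of bile acid synthesis, had 0.10 (SE 0.316) on chow and -0.52 (SE 0.315) on MCD, and Cyp27a1 -0.37 (SE 0.132) and -0.14 (SE 0.131).

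Mmp27 (ENSMUSG00000070323, chromosome 9, 7571396 to 7581885, plus strand) encodes a matrix metalloproteinase in the cluster of such genes on that chromosome. The 5 liver-Flcn-/- livers on chow held 132, 19.0, 81.4, 17.3 and 14.9 CPM. On MCD they held 141, 67.7, 81.4, 64.3, 24.0 and 90.9 CPM. Cre livers held 0.158 to 1.30 CPM on chow and 0.891 to 1.32 CPM on MCD, and the ratio of genotypes was 58.0 (exact 95% interval 46.0 to 74.3) and 69.2 (57.9 to 83.4). Without the 5 chow libraries of low unique mapping the fitted log2 difference on chow fell to 4.11 from 6.02. The diet effect in liver-Flcn-/- livers did not pass over all livers (0.57, SE 0.472, adjusted p = 0.34, edgeR). On chow, the 2 male livers held 81.4 and 132 CPM and the 3 females 14.9 to 19.0 CPM, whereas on MCD the sexes overlapped. Without the 5 chow libraries of low unique mapping, which are the chow males, the diet effect was 2.19 (adjusted p = 0.00014), and without FLCN KO Chow 1 alone it was 1.24 (adjusted p = 0.028). The sex difference over both diets was 1.45 (SE 0.375, adjusted p = 0.13, edgeR), but without FLCN KO MCD 6 it was 1.70 (adjusted p = 0.039).

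Of 24 listed metalloproteinases and TIMPs, their inhibitors, 14 were tested. On chow, where 5.52% of all tested genes rose, 2 rose in liver-Flcn-/- livers, the gelatinase gene Mmp2 (0.85, SE 0.249, adjusted p = 0.034) and the macrophage elastase gene Mmp12 (1.91, SE 0.569, adjusted p = 0.038). On MCD, where 8.53% of all tested genes fell, 5 fell, among them Mmp12 (-1.80, SE 0.341, adjusted p = 0.001), Mmp13 (-1.63, SE 0.359, adjusted p = 0.0035) and Timp1 (-1.45, SE 0.367, adjusted p = 0.0089), beside Mmp23 (-0.92, SE 0.308, adjusted p = 0.045) and Mmp2 (-0.76, SE 0.234, adjusted p = 0.028). The list median was 0.35 on chow and -0.53 on MCD. Mmp12 is also the nearest tested gene below Mmp27, at 202 kb, and Mmp7, at 110 kb, is the nearest above it (-1.24, adjusted p = 0.48 on chow and -0.53, adjusted p = 0.7 on MCD).

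Over all 22 livers Cyp46a1 and Mmp27 were among the most alike of the 9, each being among the 3 tested genes nearest the other (r = 0.96 of log2 CPM). A likeness of this kind is a description, since the genotypes set most of it. Their promoters are shown because the genes share this pattern. Each window runs 250 bases before to 50 bases after the gene's start (RefSeq, GRCm38.p6, plus strand), chr12:108334066-108334365 with 70.3% G and C for Cyp46a1 and chr9:7571146-7571445 with 38.7% for Mmp27.
Cyp46a1: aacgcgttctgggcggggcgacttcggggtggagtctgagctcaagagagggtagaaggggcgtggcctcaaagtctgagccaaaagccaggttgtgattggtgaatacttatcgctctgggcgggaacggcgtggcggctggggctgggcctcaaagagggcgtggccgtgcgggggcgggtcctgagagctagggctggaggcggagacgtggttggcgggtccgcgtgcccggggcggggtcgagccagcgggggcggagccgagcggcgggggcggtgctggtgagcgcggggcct
Mmp27: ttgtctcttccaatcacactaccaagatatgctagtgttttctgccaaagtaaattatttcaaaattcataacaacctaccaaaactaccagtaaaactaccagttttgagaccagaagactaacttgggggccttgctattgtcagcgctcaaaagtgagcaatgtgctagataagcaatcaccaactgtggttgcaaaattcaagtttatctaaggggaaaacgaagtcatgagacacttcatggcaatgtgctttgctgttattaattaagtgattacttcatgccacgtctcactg

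Adra2a (ENSMUSG00000033717, chromosome 19, 54044151 to 54048982, plus strand) encodes the alpha-2A adrenergic receptor, which lowers cAMP through inhibitory G proteins. Liver-Flcn-/- livers on chow held 1.01, 0.772, 0.336, 10.7 and 1.83 CPM. On MCD they held 0.936, 4.22, 6.22, 9.21, 4.69 and 8.35 CPM. FLCN KO Chow 4 thus stood far above the other chow livers, and FLCN KO MCD 1 below the other MCD livers. Cre livers totalled 5 counts on chow and 8 on MCD, giving ratios of 56.7 (exact 95% interval 24.0 to 176) and 77.2 (39.0 to 180). FLCN KO Chow 4 held 194 of the 259 counts of its group, and without it the fitted log2 difference on chow was 4.01 in place of 5.58, while without Cre Chow 4 it was 7.19. The separation on chow was narrow at its edge, with 0.336 CPM against 0.243 CPM. The diet effect did not pass (0.92, SE 0.627, adjusted p = 0.25, edgeR), but without FLCN KO Chow 4 it was 2.48 (adjusted p = 0.001).

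TFEB and TFE3 bind the E-box CACGTG. It and its longer form, with GT before and AC after the same 6 letters, were sought on both strands in RefSeq promoter windows, which matched 6 of the 9 genes. CACGTG stood in 7.15% of all 32851 windows and in 1 of the 6, that of Adra2a, and the longer form, which contains it, in 0.326% of all windows and in none of the 6. A match is a description of letters and says nothing of binding. The Adra2a window (chr19:54045009-54045308, plus strand, GRCm38.p6) is shown for this match, in capitals, which begins 80 bases before the RefSeq start. That start lies inside the span of the gene given above, which GENCODE begins further upstream.
Adra2a: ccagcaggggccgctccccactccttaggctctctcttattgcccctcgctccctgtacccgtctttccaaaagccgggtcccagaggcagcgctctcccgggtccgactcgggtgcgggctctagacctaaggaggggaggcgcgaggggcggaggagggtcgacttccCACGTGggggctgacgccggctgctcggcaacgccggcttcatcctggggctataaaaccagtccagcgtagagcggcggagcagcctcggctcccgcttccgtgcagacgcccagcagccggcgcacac

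Of the adrenergic receptors and adenylyl cyclase control list 19 of 24 genes were tested. On chow 1 rose, where 5.52% of all tested genes did, and on MCD 2 rose and 3 fell, where 8.06% rose and 8.53% fell. The list medians were 0.11 and -0.24. Gnai1, an inhibitory G protein alpha subunit of the kind that Adra2a signals through, rose in liver-Flcn-/- livers on chow (3.33, SE 0.487, adjusted p = 0.00011) and on MCD (2.13, SE 0.47, adjusted p = 0.0034). Its means were 0.758 and 7.76 CPM in Cre and liver-Flcn-/- livers on chow and 1.09 and 4.83 CPM on MCD. It was also the gene most like Il12rb2 over the 22 livers (r = 0.934) and among the 3 most like Prkg2 (r = 0.882). On MCD the alpha-1A receptor gene Adra1a rose as well (0.84, SE 0.157, adjusted p = 0.00094), and 3 genes fell, among them the adenylyl cyclase gene Adcy7 (-0.94, SE 0.252, adjusted p = 0.013) and the arrestin gene Arrb1 (-0.57, SE 0.13, adjusted p = 0.0047). Adra2b, the other tested alpha-2 receptor, had 0.36 (SE 0.196, adjusted p = 0.28) on chow and -0.07 (SE 0.198, adjusted p = 0.86) on MCD.

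D7Ertd443e (ENSMUSG00000030994, chromosome 7, 134265779 to 134385661, minus strand) is a protein-coding gene. On chow liver-Flcn-/- livers held 1.25, 0.594, 0.336, 0.937 and 0.701 CPM. On MCD they held 7.68, 6.28, 7.14, 4.10, 2.39 and 7.78 CPM, all above the chow livers. The diet raised it by 2.95 (SE 0.421, adjusted p = 8.5e-06, edgeR), and this call held in all 32 alternatives. Cre livers totalled 2 counts on chow and 7 on MCD, where Cre MCD 1 and 3 held all 7. The ratio of genotypes was 33.4 on chow (exact 95% interval 8.86 to 282) and 91.0 on MCD (43.9 to 227). The fitted log2 difference was 4.00 in place of 4.71 on chow without the 5 libraries of low unique mapping, and 7.12 in place of 6.39 on MCD without Cre MCD 1. The sexes did not differ beyond their spread (0.06, SE 0.384, adjusted p = 0.99).

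Cfap44 (ENSMUSG00000071550, chromosome 16, 44394796 to 44482428, plus strand) encodes a protein of the axoneme, the core of motile cilia and flagella. No Cre liver on chow held a count, which allows up to 0.0337 CPM over the 6 livers (3 counts). Liver-Flcn-/- livers on chow held 1.01, 0.297, 1.34, 0.110 and 0.647 CPM, at least 20.2-fold higher in the mean. On MCD the Cre livers held 2.80, 2.20, 1.78, 2.04 and 2.56 CPM, at least 67.5-fold above the Cre livers on chow. Liver-Flcn-/- livers on MCD held 4.73, 4.35, 3.95, 3.25, 2.05 and 6.82 CPM, and FLCN KO MCD 5 alone fell into the Cre range. Cfap44 therefore was not a gene of 1 genotype, since Cre livers on MCD held 1.78 to 2.80 CPM. The ratio of genotypes on MCD was 1.83 (exact 95% interval 1.57 to 2.14). The fits gave a rise with the diet in Cre livers (adjusted p = 3.2e-07, edgeR) and in liver-Flcn-/- livers (2.65, SE 0.428, adjusted p = 9.4e-05). The chow levels, with no count in Cre livers, entered the choice of the gene, so these diet effects are a description.

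Most of the other cilium genes fell under the filter on low counts. Of 44 listed axoneme and motile cilium genes, 42 were in the table and 7 passed the filter on low counts. None of the 7 passed between genotypes on chow, where 8.62% of all tested genes did, and 1 fell on MCD, where 8.53% fell, the axonemal dynein gene Dnah1 (-1.19, SE 0.345, adjusted p = 0.021). Dnah1 had 0.196 CPM in Cre livers on chow and 3.27 CPM on MCD, against 0.599 and 1.44 CPM in liver-Flcn-/- livers. Among the other tested Cfap genes, Cfap20, Cfap36, Cfap97 and Cfap126 had log2 fold changes of -0.14 to 0.20 on chow and 0.07 to 0.29 on MCD.

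**Figure D3:**
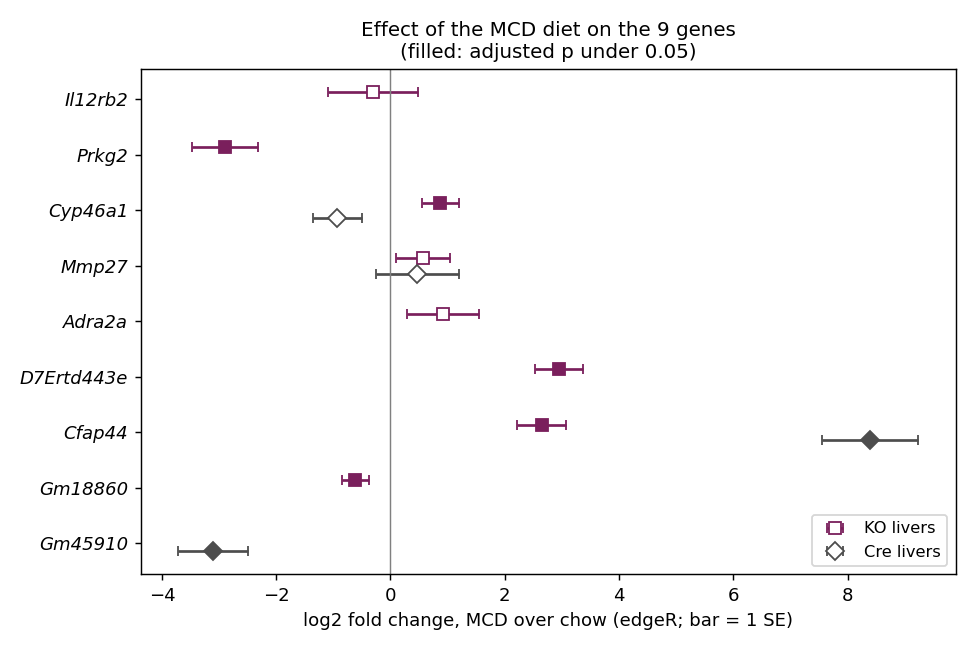
Log2 fold change of MCD over chow with 1 SE from edgeR, in liver-Flcn-/- livers (squares) and Cre livers (diamonds), filled where the adjusted p was under 0.05. Genes near 0 counts in a genotype are left out there, and the Cfap44 value in Cre livers rests on a chow group without a count. Prkg2 and Gm18860 fell and D7Ertd443e, Cfap44 and Cyp46a1 rose in liver-Flcn-/- livers.

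Of the 8 genes higher without Flcn, 5 passed for the diet effect in liver-Flcn-/- livers, 3 upward and 2 downward, against 45% of all tested genes (22.5% in each direction). In Cre livers Cfap44 rose and Gm45910 fell, against 57.5% of all tested genes (29.3% up and 28.2% down). Because the choice could favour a diet effect for Prkg2, Cfap44 and Gm45910, nothing is read from these counts. The interaction was past the threshold for Cyp46a1 upward and for Prkg2 and Cfap44 downward, and for 8.83% of all tested genes (3.29% up and 5.54% down), and since the choice of the genes favoured it nothing is read from this count.

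Gm18860 (ENSMUSG00000110569, chromosome 8, 71704205 to 71704968, minus strand) is a processed pseudogene. Its spread between liver-Flcn-/- livers was the smallest of the 8 higher genes, with a coefficient of variation of 23.1% on chow and 9.1% on MCD. Liver-Flcn-/- livers on chow held 4.51, 3.09, 2.49, 3.42 and 2.96 CPM, and on MCD 1.87, 2.28, 2.22, 2.32, 2.20 and 1.91 CPM. Cre livers held 0 to 2 counts each. The ratio of genotypes was 145 on chow (exact 95% interval 39.6 to 1200) and 38.9 on MCD (17.6 to 107). The diet lowered it by -0.62 (SE 0.237, adjusted p = 0.037, edgeR), a call lost in 12 of 32 alternatives, and the sexes did not differ beyond their spread (0.08, SE 0.23, adjusted p = 0.96).

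The values of Gm18860 are uncertain because it is nearly identical to an expressed gene. Of its 764 bases 760 aligned to Cnot8, a subunit of the CCR4-NOT deadenylase, at 97.8% identity.

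Cnot8 lies on chromosome 11 from 58104153 to 58118594, 1.67 Mb from Flcn. Its own counts differed little between genotypes (0.14 on chow, adjusted p = 0.33, and 0.14 on MCD, adjusted p = 0.3, edgeR). It fell with the MCD diet by -0.76 in Cre livers (adjusted p = 2.7e-07) and by -0.76 in liver-Flcn-/- livers (SE 0.0858, adjusted p = 4e-07). Gm18860 made up 5.00 to 6.29% of the summed counts of the pair in liver-Flcn-/- livers on chow and 5.18 to 6.94% on MCD. In Cre livers the share was 0 to 0.135% on chow and 0 to 0.288% on MCD. The share thus lay in a narrow range in liver-Flcn-/- livers on both diets, while Cnot8 fell with the diet. Whether reads of Cnot8 were assigned to Gm18860 was not tested.

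**Figure D4:**
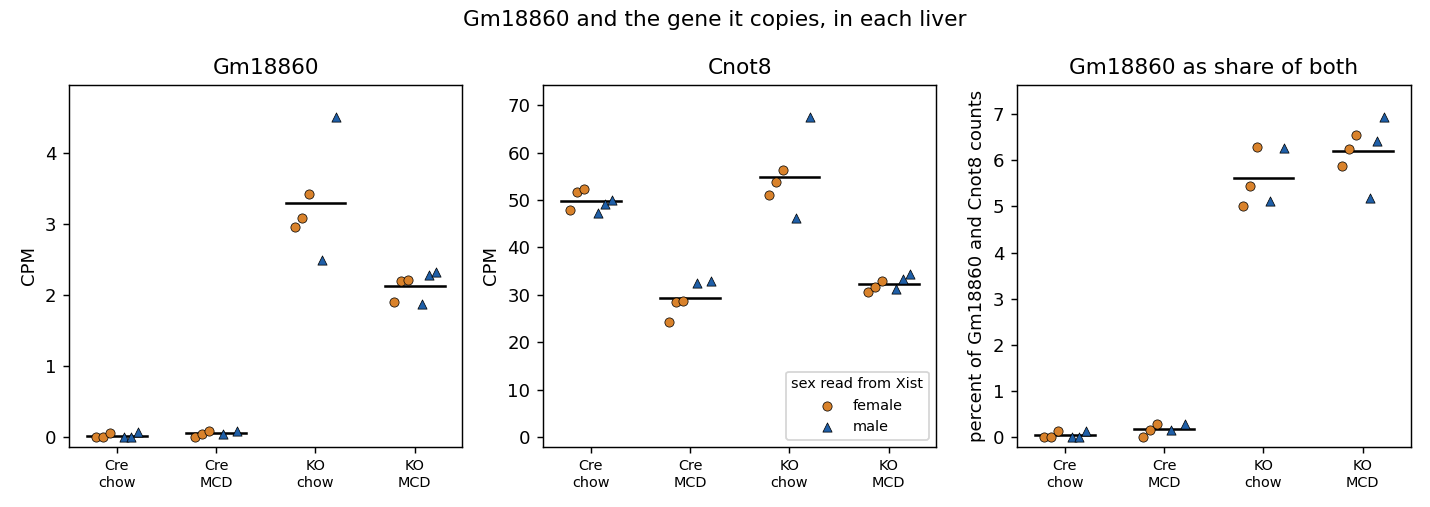
CPM of Gm18860 and of Cnot8, and Gm18860 as a percent of the counts of both genes, in every liver. Triangles are males, circles are females and bars are group means. The share lies between 5.00 and 6.94% in all liver-Flcn-/- livers and at most at 0.288% in Cre livers, while Cnot8 overlaps between genotypes.

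The gene most like Gm18860 over the 22 livers was also on chromosome 11. Gm12248 (58063552 to 58093134, minus strand) lies 11 kb from Cnot8 and 1.70 Mb from Flcn, with r = 0.979. It totalled 2 counts in Cre livers on chow and 0 on MCD, against 1.28 to 2.26 CPM and 0.761 to 1.67 CPM in liver-Flcn-/- livers. A second gene of the region, 2610507I01Rik (59199836 to 59202385, 0.589 Mb from Flcn), went the other way, with 6.51 to 8.87 CPM in Cre livers and 0.0672 to 0.233 CPM in liver-Flcn-/- livers on chow. These 2 genes were the ones within 5 Mb of Flcn among the 24 genes that separated the genotypes by at least 8-fold on both diets (8.33%), and the same 2 were in the window among the 86 genes separated so on either diet (2.33%), where 0.804% of all tested genes lie in that window.

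Gm45910 (ENSMUSG00000110714, chromosome 8, 93141331 to 93154116, minus strand) is an unprocessed pseudogene in the cluster of Ces1 genes, which encode liver carboxylesterases. It was the member lost without Flcn. Cre livers on chow held 16.8, 27.6, 41.4, 19.0, 14.5 and 12.1 CPM, and liver-Flcn-/- livers 0 to 0.238 CPM. The ratio of Cre to liver-Flcn-/- livers was 184 (exact 95% interval 99.9 to 385). On MCD Cre livers held 4.45, 2.63, 0.141, 0 and 5.48 CPM, and liver-Flcn-/- livers 0 to 0.0541 CPM, a ratio of 81.4 (31.4 to 301). Cre MCD 4 at 0 thus lay in the range of the liver-Flcn-/- livers, and Cre MCD 3, also male, lay just above it. In Cre livers Gm45910 was lower on MCD than on chow, at -3.11 (SE 0.611, adjusted p = 0.00019, edgeR). This was -3.57 to -2.79 when single livers were left out and -4.68 with limma-voom. Since the Cre levels on chow entered the choice of Gm45910, the fall is a description.

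Females were higher in Gm45910 within both diets. On chow the 3 Cre females held 19.0 to 41.4 CPM and the 3 males 12.1 to 16.8 CPM. All 3 of these males were libraries of low unique mapping, so on chow sex and mapping quality cannot be told apart. On MCD the 3 females held 2.63 to 5.48 CPM and the 2 males 0 and 0.141 CPM. The male to female difference in Cre livers was -1.91 (SE 0.454, adjusted p = 0.023, edgeR), which was lost without Cre MCD 3 (-1.55, adjusted p = 0.068), the liver with muscle RNA, without Cre Chow 3 (-1.99, adjusted p = 0.077) and with limma-voom (-1.38, adjusted p = 0.075).

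Of the bases of Gm45910, 997 aligned to Ces1c at 88.3% identity and 701 to Ces1b at 87.2%, and whether reads were shared was not tested. In liver-Flcn-/- livers on chow Ces1c had a mean of 3020 CPM and Ces1b of 126 CPM, where Gm45910 had 0.115 CPM. On chow Ces1b was lower in liver-Flcn-/- livers (-1.89, adjusted p = 0.00045), as were Ces1e (-0.87, adjusted p = 0.00036) and Ces1f (-0.69, adjusted p = 0.011), while Ces1c (-0.23, adjusted p = 0.62) did not pass. On MCD Ces1e was higher (1.03, adjusted p = 4.8e-05) and Ces1b did not pass (-0.71, adjusted p = 0.11, edgeR). Ces1b was also among the 3 genes most like Gm45910 (r = 0.891), behind Zfp868, a zinc finger gene on chromosome 8 (r = 0.906).

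Of 17 nearest or overlapping tested genes within 500 kb, 1 passed on chow and 3 on MCD by edgeR, against 8.62% (5.52% up and 3.1% down) and 16.6% (8.06% up and 8.53% down) of all tested genes, shares near the background. These were Mmp12 on both diets, and on MCD Gm8566, 85.2 kb from Il12rb2 (-0.45, adjusted p = 0.042), and Ces1d, 12.0 kb from Gm45910 (0.93, adjusted p = 0.027).

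The same livers were high in several of the genes. FLCN KO Chow 1 and 3, both male and both of low unique mapping, were the 2 highest of 5 for Il12rb2, Prkg2, Mmp27 and Cfap44. For Mmp27 and Cfap44 the sexes overlapped in liver-Flcn-/- livers on MCD. The males FLCN KO MCD 1, 2 and 4 were the 3 highest of 6 for Il12rb2 and Prkg2. The sex difference of Cfap44 did not pass in liver-Flcn-/- livers over both diets (0.49, SE 0.382, adjusted p = 0.83, edgeR). In Cre livers on MCD Cfap44 was lower in males, at 1.78 and 2.04 CPM against 2.20 to 2.80 CPM in females. Over the 11 liver-Flcn-/- livers, with diet means removed, 28 pairs of the 8 higher genes were compared by permutation within diet and none passed after Benjamini-Hochberg adjustment (lowest adjusted p = 0.2 for Pearson's r and 0.17 for Spearman's rho). An unadjusted p under 0.05 for Pearson's r was reached by 5 pairs, all involving Mmp27 or Il12rb2, genes that fall into clusters by sex, so no pooled r is given for them. With diet and sex means removed 3 pairs had an unadjusted p under 0.05 and none passed (lowest adjusted p = 0.28 and 0.25). Of pairs free of the sex clusters, Cyp46a1 and D7Ertd443e had Pearson r = 0.611 (permutation p = 0.06, adjusted p = 0.24) and Spearman rho = 0.664 (permutation p = 0.041, adjusted p = 0.28), and r = 0.552 without the 2 livers farthest from the median. None of the 8 genes followed the residual Flcn transcript after adjustment. D7Ertd443e came nearest, with r = 0.605 (permutation p = 0.073, adjusted p = 0.58), rho = 0.709 (permutation p = 0.026, adjusted p = 0.21) and r = 0.67 without the 2 farthest livers.

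Genes of the pathway that Flcn controls were measured in the same livers. Of the list of FLCN partners and MiT/TFE factors and targets 17 of 18 genes were tested. On chow 5 rose and none fell in liver-Flcn-/- livers, where 5.52% of all tested genes rose and 3.1% fell. On MCD 10 rose and 2 fell, where 8.06% of all tested genes rose and 8.53% fell. The list medians were 0.40 and 0.58. Rragd, which encodes RagD, rose most, by 3.91 (SE 0.252, adjusted p = 7.8e-10) on chow and 3.18 (SE 0.242, adjusted p = 2.5e-08) on MCD. Ctsa, a lysosomal carboxypeptidase, rose by 1.15 (SE 0.119, adjusted p = 1.1e-06) and 1.35 (SE 0.123, adjusted p = 2.5e-07). Gpnmb rose on chow (3.04, SE 0.705, adjusted p = 0.0082) but not on MCD (0.09, SE 0.402, adjusted p = 0.91). On MCD the FLCN partner gene Fnip2 (1.33, SE 0.268, adjusted p = 0.0017) and Depp1 (1.47, SE 0.338, adjusted p = 0.0048) rose, whereas the factors Tfe3 (-0.29, SE 0.0701, adjusted p = 0.0061) and Mitf (-0.48, SE 0.163, adjusted p = 0.048) fell.

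Markers of other cell types were looked at for each of the groups. On chow the bile duct list had 2 of 6 markers higher in liver-Flcn-/- livers, at a summed 81.1 to 204 CPM against 47.2 to 95.4 CPM, where 5.52% of all tested genes were higher. The 2 were Spp1, which made up most of the sum (103 against 44.5 CPM), and Cftr (0.947 against 0.174 CPM). Of the other 4, Sox9 had 16.8 against 11.6 CPM, Krt7 1.23 against 1.18 CPM, Epcam 2.34 against 2.62 CPM and Krt19 1.25 against 4.34 CPM (SD 6.87 in Cre livers), and none passed. The Kupffer and endothelial lists had 1 of 6 each. The hepatocyte list had 1 of 9 lower, where 3.1% of all tested genes were lower. On MCD 2 bile duct markers, 1 Kupffer and 1 endothelial marker were higher, and 2 hepatocyte, 2 stellate, 1 neutrophil and 1 neuron marker were lower, where 8.06% of all tested genes were higher and 8.53% lower. Des, 1 of the 2 stellate markers and also a muscle gene, had 36.2 ± 61.6 CPM (SD, n = 5) in Cre livers on MCD, and the part of the muscle RNA in Cre MCD 3 in this was not tested. All 8 skeletal muscle markers were lower on MCD, where Cre MCD 3 set the Cre mean. None of the tested B cell (4 of 4), pancreatic acinar (2 of 7) or adipocyte (1 of 5) markers passed on either diet, and no male germ cell marker held a count in any liver. The part of these cell types in the 9 genes was not tested.

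Other genes switched in the same way. Counting genes whose groups did not overlap and whose means differed at least 8-fold, 64 were higher and 5 lower in liver-Flcn-/- livers on chow, and 32 were higher and 9 lower on MCD. On both diets 22 were higher, among them 6 of the 9 genes (Il12rb2, Cyp46a1, Mmp27, Adra2a, D7Ertd443e and Gm18860), and 2 were lower. Among those higher on chow with the largest ratios of means were Prkg2, Gm18860, Il12rb2, Gm2990 and Fabp3, a fatty acid binding protein gene of heart and muscle, but Cre groups with few counts leave their order unsettled, and Cfap44, without a Cre count, has no ratio. Gm2990 had 2.32 and 0.0203 CPM and Fabp3 3.93 and 0.0408 CPM in liver-Flcn-/- and Cre livers. On MCD they were Gm47063, Il12rb2, D7Ertd443e and Cyp46a1, beside Gm12248 without a Cre count. Lower on chow beside Gm45910 were 2610507I01Rik (0.150 against 7.55 CPM), Ak7, A530016L24Rik and Cnmd. Lower on MCD were 2610507I01Rik, A530016L24Rik, Mep1a, Akr1c18, Sprr1a, Trdc, Rian, Bcl2l14 and Gm45792. The nearest in pattern to the other genes were Siae for Cyp46a1 (r = 0.966), Renbp for Mmp27 (r = 0.967), 1700019D03Rik for Adra2a (r = 0.946), Plekhg5 for D7Ertd443e (r = 0.955), Osbpl3 for Cfap44 (r = 0.966) and Gm45847 for Prkg2 (r = 0.904), each over 22 livers that include both genotypes. Next came Ephb2 for Il12rb2 (0.915) and for Gm18860 (0.945), Neil2 for Gm18860 (0.941), Chil1 for Prkg2 (0.877), Kcnk3 for Cyp46a1 (0.957), Ogdhl for Mmp27 (0.957) and Mycbp for Gm45910 (0.881). Ggh and Ttc3 followed for Adra2a (0.912 and 0.895), Sult1c2 and Ttc3 for D7Ertd443e (0.954 and 0.951), and Prss8 and AI314278 for Cfap44 (0.966 and 0.96).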

How the data were processed

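The authors deposited raw read counts per gene, without normalization, from mRNA libraries of total liver RNA. By the study's methods, reads were trimmed with Trimmomatic, mapped to GRCm38 by STAR and counted by HTSeq, and the submitters' processing notes list these with bcl2fastq. Tool versions, the annotation release and any collapsing of molecular identifiers are not given in the sources used here. The 9 genes and all gene lists were chosen with earlier results of these data known.

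The test took genes whose mean count reached 10, and was made with edgeR 4.0.16 in R 4.3.3 (TMM, 1 fit of 4 groups, two-sided quasi-likelihood test, Benjamini-Hochberg over 14062 genes, threshold 0.05). CPM are counts scaled by TMM library size. Log2 CPM used a prior count of 2. Folds are ratios of pooled counts with exact 95% intervals, or bounds against 3 counts over the group. Correlations used 100000 permutations. Pseudogene copies came from BLAST 2.17.0. limma 3.58.1 (voom) and DESeq2 1.42.0 were alternatives. P-values measure the spread between mice. Within groups no 2 libraries were identical. Genes were named by a rule: the 9, Flcn, Xist and Ddx3y, up to 5 called genes and members' relatives from each of 7 pathway lists, 3 most alike genes, nearest neighbours within 500 kb, and the leading other genes separated at least 8-fold. Cnot8, the Ces1 genes, 2610507I01Rik, Tfe3 and Mitf, and the fits with sex (read from Xist, at least 1000 counts) were added after values were seen. Cell types were followed by 13 marker lists. Some listed items are not reported here.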

Additional observations from a re-analysis of the deposited data

Results flagged for a closer look

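In groups of 4 to 10 livers the gap of the highest or lowest liver to its nearest neighbour was compared with the range of the group (Dixon's test), which by chance marks about 1 in 20 groups. Of 33 groups of livers tested, 2 had such a liver, both for Adra2a. FLCN KO Chow 4 held 10.7 CPM of Adra2a where the other liver-Flcn-/- livers on chow held 0.336 to 1.83 CPM. Cre Chow 4 held 0.243 CPM, a few counts, where the other Cre livers on chow held 0 to 0.0607 CPM.

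The interaction of genotype and diet in edgeR was past the threshold for 3 of the genes. It is the difference of the genotype contrasts that chose them, so it is no independent support. The log2 difference was -4.98 for Prkg2 (adjusted p = 0.034), 1.80 for Cyp46a1 (adjusted p = 0.039) and -5.75 for Cfap44 (adjusted p = 0.0073). The call held in 17 of 30 alternatives for Prkg2, 14 of 31 for Cyp46a1 and 30 of 31 for Cfap44, and limma-voom and the replicate block each lost it for Prkg2 and Cyp46a1. Fitted values for Prkg2 and Cfap44 rest on Cre livers on chow with 2 and 0 counts in all and depend on the prior count.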

How the results depend on the processing

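The replicate numbers did not pair the livers, since 6 of 20 same-numbered pairs deviated together with a correlation over 0.1 (mean 0.0236). With replicate block the interaction was called for 552 genes in place of 1242, and the diet effect of Il12rb2 in liver-Flcn-/- livers was 0.33 in place of -0.31. The block also called the diet effect of Adra2a there (1.37, adjusted p = 0.033) and lost that of Gm18860 (-0.57, adjusted p = 0.092) and the interactions of Prkg2 (-4.18, adjusted p = 0.072) and Cyp46a1 (1.98, adjusted p = 0.05). Without the 5 chow libraries of low unique mapping, which are the chow males, the interaction was called for 783 genes. The genotype difference on chow was then called for 495 genes in place of 1212, and the diet effect of Il12rb2 in liver-Flcn-/- livers was 2.30. Without the 2 libraries of mixed Y-linked reads the interaction was called for 683 genes and the interaction of Mmp27 was -0.05 in place of 0.10. With limma-voom the sex difference in liver-Flcn-/- livers was called for 73 genes in place of 46 and the diet effect of Il12rb2 was 0.10. On chow limma-voom gave genotype differences of 3.91 in place of 6.63 for Cfap44 and 3.89 in place of 4.71 for D7Ertd443e. For Gm18860 it gave 6.05 in place of 6.82. The genotype difference of Gm45910 on MCD was -6.06, with -6.34 to -4.01 over 10 alternatives. With DESeq2 the sex difference was called for 107 genes in liver-Flcn-/- livers, for 645 in place of 390 in Cre livers, and the genotype by sex difference for 10 in place of 0. Leaving out single livers gave 813 to 1422 genes for the interaction, 669 to 1428 for the genotype difference on chow, 28 to 73 and 242 to 710 for the sex difference in liver-Flcn-/- and Cre livers, and 0 to 75 for genotype by sex. It also gave -0.84 to 0.44 for the diet effect of Il12rb2, -0.15 to 0.77 for the interaction of Mmp27, and -0.18 to 0.23 and -0.09 to 0.20 for the sex difference of D7Ertd443e and Gm18860 in liver-Flcn-/- livers. The cause of these changes was not tested. The diet effects of Prkg2, D7Ertd443e and Cfap44 in liver-Flcn-/- livers and the sex difference of Il12rb2 kept their direction and call in all alternatives run. For Prkg2 these leave out the fit without the 5 chow libraries of low unique mapping, where it fell under the count filter. The diet effects of Prkg2 and Cfap44 remain descriptions, since their chow levels entered the choice and every alternative uses the same livers. Cre livers with a handful of counts limit every fold against them.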
